A study of Homo sapiens with 6 samples.

Results

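The contacts described here join chromosome 7 to chromosome 20 in SNU-C1, a colon cancer cell line, and the same contacts were read in HCC1954, a breast cancer cell line, and OE33, an esophageal adenocarcinoma cell line. The members are all 6270904 pairs of one 40-kb bin of chromosome 7 (3979 bins) and one of chromosome 20 (1576 bins), out of 2733951927 bin pairs of different chromosomes in each map. This pair of chromosomes was chosen by its contact values in SNU-C1, so its high level there is a description and was not tested. None of the cultures was given a treatment in the labels. Each of these lines had 1 map, so the differences between lines have no replicate check, and the intervals given (exact 95% Poisson intervals for read pairs, a normal approximation for log2 ratios) cover counting error only.

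Chromosomes occupy separate territories in the nucleus, and in Hi-C, which ligates and sequences DNA ends that lie close together, loci on different chromosomes are therefore seldom joined. Where a translocation places pieces of different chromosomes on one molecule, the loci on either side of the junction come into contact as neighbours do, most often next to the junction and less with growing distance, which gives a corner in the map between those chromosomes. Within a chromosome, active (A) and inactive (B) compartments contact their own kind more than the other kind. Gains of chromosome 7 and of the long arm of chromosome 20 (20q) are common in colorectal cancer.

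In the SNU-C1 map 135017346 read pairs were recovered, of which 14.8% lay between chromosomes, against 116359220 (19.6%) in HCC1954 and 141120752 (36.6%) in OE33. The colon cancer line SW480 was used for coverage and compartments only, because pairs between chromosomes made up 0.217% of the 162747311 read pairs of its map without a replicate number. Contacts are given as O/E, the mean contact frequency of a block of bin pairs over the mean of all usable pairs of bins on different chromosomes in the same map. A bin was usable where its coverage was at least 0.25 of the median in all 4 lines, which left 3586 bins of chromosome 7, 1389 of chromosome 20 and 4980954 bin pairs.

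The contacts turned on 1 corner, whose sides were the 40-kb bins chr7:2320001-2360000 and chr20:35400001-35440000 (hg19). The reference sequence around the first MboI site of the bin on chromosome 20, chr20:35400144-35400303, is shown to place that edge in the genome (GRCh37, plus strand, the build of the bins), with the recognition sequence of MboI, the enzyme that cut the chromatin, in capitals. A junction, which was inferred from the contacts only, would lie at an unknown base within or near the bin on chromosome 20. On chromosome 7 the bin is the first that SNU-C1 lists, so the position there is not bounded below.
chromosome 20: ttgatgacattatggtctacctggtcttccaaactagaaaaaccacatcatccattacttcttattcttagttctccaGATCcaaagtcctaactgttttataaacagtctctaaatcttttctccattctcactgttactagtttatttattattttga

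MboI sites, which set how many fragments a bin can give, were not scarce on either side of the corner. The bin at the corner held 149 sites on chromosome 7 and 132 on chromosome 20, beside medians of 97 and 102 over all bins of these chromosomes without unknown bases. The bins without unknown bases within 1 Mb below the corner had medians of 97 sites on chromosome 7 (25 bins) and 124 on chromosome 20 (23 bins). GC content differed more on chromosome 7, with a median of 57.1% in those 25 bins, 49.3% in the 25 bins from the corner and 39.4% over the chromosome, and its part in the unlisted bins was not tested.

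Over the whole of both chromosomes, SNU-C1 had 342903 read pairs between chromosomes 7 and 20 (341756 to 344053), which was 1.71% of its read pairs between chromosomes. HCC1954 had 57134 (0.25%) and OE33 had 352552 (0.682%). The mean O/E of SNU-C1 was 4.28, that of HCC1954 1.08 and that of OE33 1.38. Ranked among all chromosome pairs of its map by the mean over 1-Mb blocks, the pair had rank 1 for SNU-C1, rank 101 for HCC1954 and rank 25 for OE33. SNU-C1 thus stood above both other lines, and in each of the 3 maps the pair was above most other chromosome pairs.

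In 1-Mb blocks, 1143 of 8526 block pairs were specific to SNU-C1, meaning an O/E of at least 4 which, with 0.5 added on both sides, also came to at least 4 times the higher value of HCC1954 and OE33. The share over all chromosome pairs was 0.17% in SNU-C1, and the pair of chromosomes was selected on this contrast. Only chromosomes 3 and 5 had more in this line, with 2015 of 32617 block pairs. Their share of 6.18% was below the 13.4% of chromosomes 7 and 20. No block pair of chromosomes 7 and 20 was specific to HCC1954, where the share over all chromosome pairs was 0.398%, or to OE33, where it was 0.0702%. The lowest ratio inside the threshold was 4.001 and the highest outside was 3.999, and 397 block pairs had a ratio from 4 to 5 against 655 from 3 to 4, so the number depends on where the threshold is set. None lay on 20p or the first part of 20q, and all 1143 began at or above 35 Mb of chromosome 20. From there on, they were 794 of 1512 block pairs (52.5%) on the short arm of chromosome 7 (7p). On the long arm (7q) they were 349 of 2604 (13.4%), so most block pairs of 7q did not pass.

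**Figure D1:**
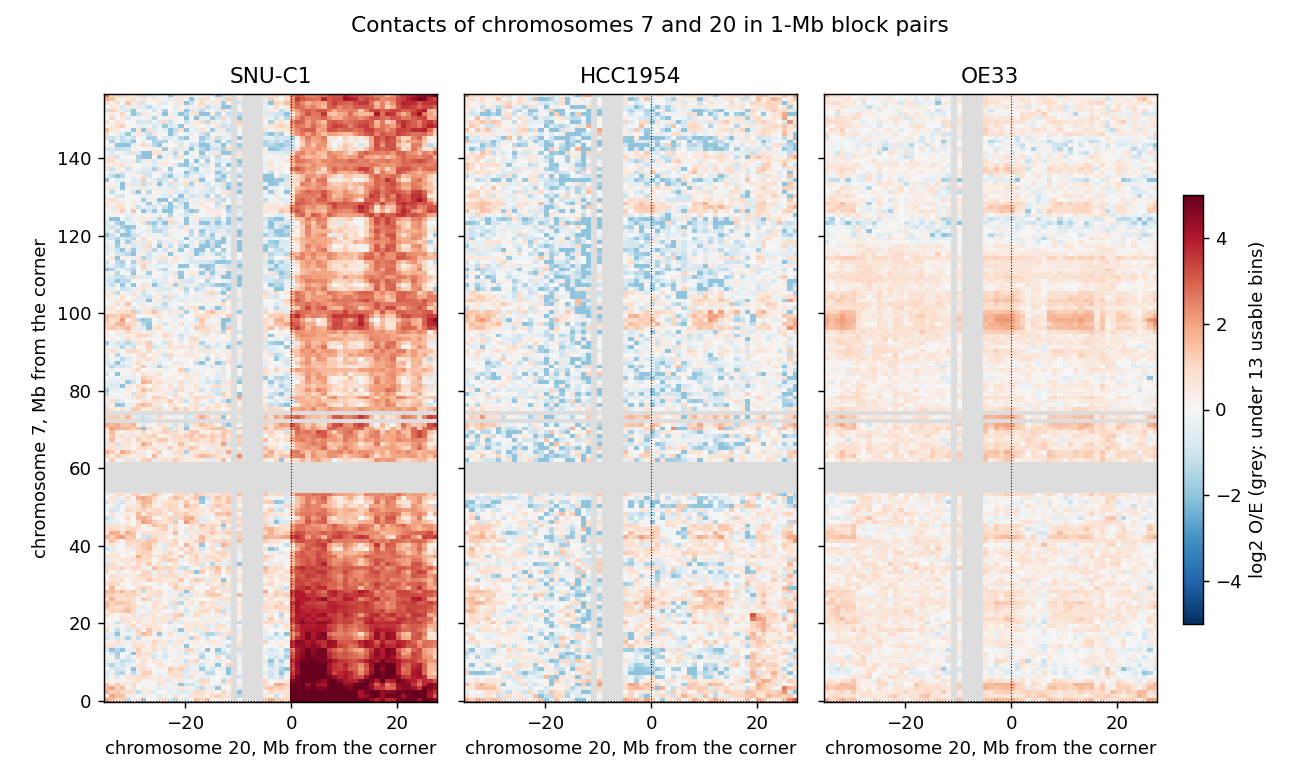
Log2 O/E of 1-Mb block pairs of chromosomes 7 (vertical axis) and 20 (horizontal axis) in SNU-C1, HCC1954 and OE33, in Mb from the corner, with dotted lines through the corner. In SNU-C1 all 1143 specific block pairs lie at or to the right of the vertical dotted line, strongest near the corner, while HCC1954 and OE33 show no rectangle that starts at the corner.

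The strongest 1-Mb block pair was chr7 2 to 3 Mb with chr20 35 to 36 Mb, which held 5421 read pairs in SNU-C1 (5278 to 5567) and had an O/E of 889. The same block pair had 9 read pairs and an O/E of 2.34 in HCC1954, and 95 read pairs and an O/E of 3.52 in OE33. Next to it, chr7 2 to 3 Mb with chr20 36 to 37 Mb had an O/E of 207 and chr7 3 to 4 Mb with chr20 35 to 36 Mb had 99.4. Among 200-kb block pairs with at least 3 usable bins on each side, which leaves out the block with the first listed bins of chromosome 7, SNU-C1 exceeded the other maps most in the one that starts at 2.4 Mb of chromosome 7 and 35.4 Mb of chromosome 20, with an O/E of 3935 from 1318 read pairs (1248 to 1391). At 40 kb the pair of bins at the corner itself was highest, with 226 read pairs and an O/E of 19756, and held 0 read pairs in both HCC1954 and OE33.

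The edge on chromosome 20 fell within 1 bin. With the first 1 Mb of chromosome 7 from the corner, the bin chr20:35360001-35400000 had 2 read pairs and a mean O/E of 11.0, and the next bin, chr20:35400001-35440000, had 671 read pairs and a mean O/E of 2172. The 4 following bins had 747, 855, 1105 and 514 read pairs, so the level did not peak in the first bin. The 5 bins below the edge had 0 to 2 read pairs each. HCC1954 had at most 1 read pair in any of these bins, and OE33 had 3 to 11 on both sides, with no step at the edge.

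The edge on chromosome 7 coincided with the start of the measured part of the chromosome. The first bin that SNU-C1 lists on chromosome 7 was chr7:2320001-2360000, with 898 read pairs to the first 1 Mb of chromosome 20 from the corner, and the 2 bins after it had 1322 and 669. The 58 bins before it, from the tip of 7p to 2.32 Mb, were not listed in SNU-C1 at any distance, whereas HCC1954 listed 50 of them, OE33 56 and SW480 56. Of the 4 quadrants around the corner, the 2 that hold these bins could therefore not be measured in SNU-C1, and whether contacts with chromosome 20 would have continued to the tip of 7p cannot be told from this map.

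**Figure D2:**
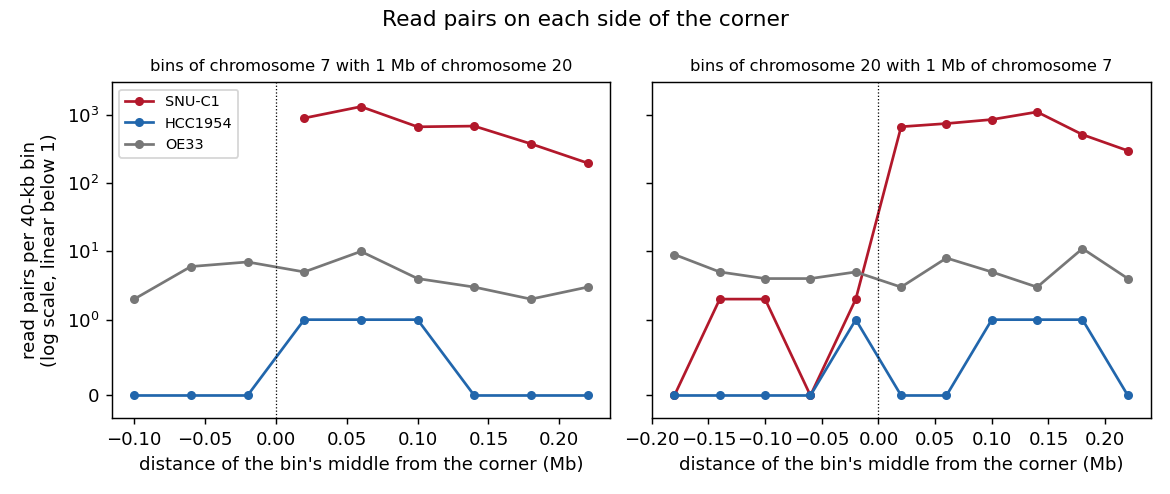
Read pairs per 40-kb bin on either side of the corner, for bins of chromosome 7 with the first 1 Mb of chromosome 20 from the corner (left) and the reverse (right), on an axis that is logarithmic above 1. In SNU-C1 the read pairs go from 2 to 671 across the edge on chromosome 20, and bins below the corner on chromosome 7, which are not listed, are not drawn.

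The enriched quadrant lay on the side of higher coordinates on both chromosomes. Over 2 Mb, chromosome 7 above 2.32 Mb with chromosome 20 above 35.40 Mb had a mean O/E of 285 from 10524 read pairs (10324 to 10727). The same 2 Mb of chromosome 7 with the 2 Mb of chromosome 20 below the corner had a mean O/E of 2.50 from 55 read pairs (41.4 to 71.6). The log2 ratio of these quadrants was 6.57, with a counting interval of 6.19 to 6.95, after 0.5 was added to each mean. For the quadrants, bins were kept by the coverage of their own line alone and not by that of all 4 lines. Below the corner on chromosome 7 this gave 45 bins in HCC1954 and 50 in OE33. In HCC1954 the 4 quadrants ranged from 1.36 to 3.91, from 25 to 40 read pairs, and the quadrant enriched in SNU-C1 was the lowest. In OE33 they ranged from 1.93 to 3.07, from 235 to 402 read pairs, and the same quadrant was again the lowest. The enriched side was thus the one that runs from 2.32 Mb towards the centromere on chromosome 7 and from 35.40 Mb towards the end of 20q on chromosome 20.

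The same rule gave 4 further corners in SNU-C1, all within the enriched quadrant. Their 200-kb block pairs had 23 to 42 read pairs and an O/E of 78.7 to 109, and the log2 contrast of their quadrants was 0.85 to 1.41, against 8.11 at the corner described. None of the 4 had an edge as sharp as the corner described. In OE33 the rule returned block pairs with an O/E of 7.04 to 8.02 from 10 to 21 read pairs, and in HCC1954 none.

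Contacts in the enriched quadrant fell with the summed distance, which is the distance of one bin from the corner along chromosome 7 plus that of the other along chromosome 20. From 0.4 to 10 Mb the log-log slope was -1.16 (standard error 0.066, 14 distance bins), beside -1.32 (0.036) within all chromosomes of the same map and -1.32 (0.038) within chromosomes 7 and 20. The slope between the chromosomes was the shallower one, and the difference was not tested. When the corner was moved outward by 1 bin on both chromosomes the slope was -1.25, beside the same -1.32 within chromosomes.

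Against the within-chromosome mean at the same distance, the quadrant reached a median of 0.409 from 0.4 to 10 Mb (lowest 0.248, highest 0.555). From read pairs without the iterative correction the median was 0.682. The level was not constant. It was 0.579 in the pair of bins at the corner, rose to 0.903 at a summed distance of 0.16 Mb, fell to 0.248 at 0.882 Mb and returned to 0.555 at 4.50 Mb. At 28.5 Mb it was 0.582. At the same positions the ratio was at most 0.0074 in HCC1954 and 0.024 in OE33 up to 3.57 Mb, and 0.0667 and 0.103 at 28.5 Mb. How many copies of these chromosomes carry a junction was not measured.

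**Figure D3:**
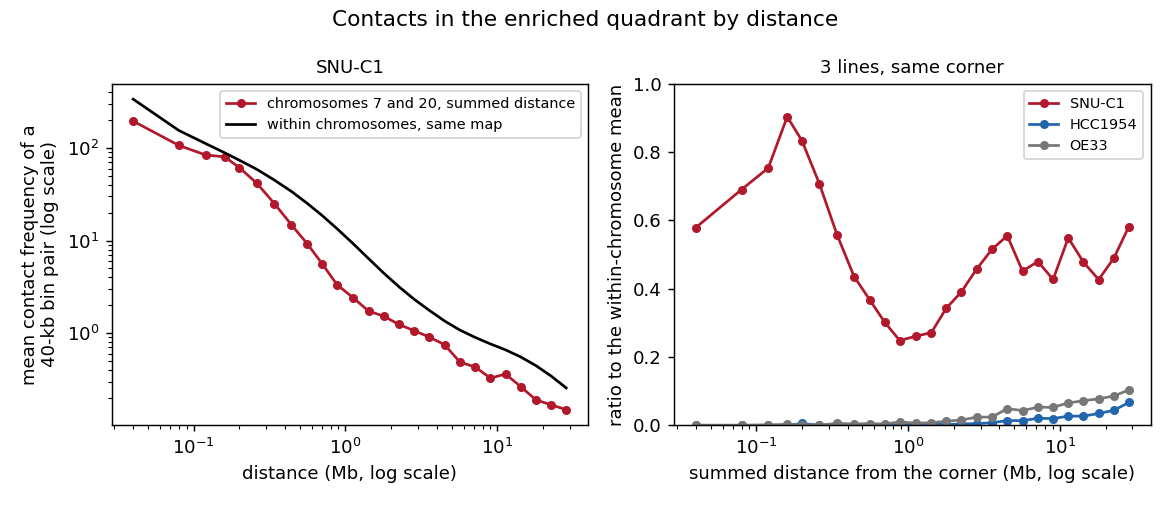
Left, mean contact frequency of a 40-kb bin pair against distance (both axes logarithmic) in SNU-C1, for chromosomes 7 and 20 in the enriched quadrant by summed distance and within chromosomes. Right, the ratio to the within-chromosome mean in the 3 lines, which in SNU-C1 moves between 0.248 and 0.903 and in the other lines stays near 0 up to a few Mb.

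The contact ran across the centromere of chromosome 7 and along the whole of 7q. Chromosome 20 from the corner to its end had a mean O/E of 12.5 with 7p (189859 read pairs) and 4.69 with 7q (110577 read pairs) in SNU-C1. In HCC1954 the values were 1.33 and 1.06, and in OE33 1.34 and 1.37. By contrast 20p had 1.43 with 7p and 1.06 with 7q in SNU-C1, and the part of 20q below the corner had 1.38 and 1.04. The enrichment was therefore confined, among these 6 combinations of arms, to the 2 that held chromosome 20 from the corner onwards.

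Along chromosome 7 the mean O/E with chromosome 20 from the corner fell in 10-Mb steps from 35.5 to 14.4, 11.0, 7.45, 5.38 and 3.88 up to 60 Mb, around the centromere. Beyond it they were 3.71 at 60 to 70 Mb, reached their lowest at 80 to 90 Mb, with 2.82, and then varied between 3.79 and 5.47 from 90 to 150 Mb. The last step, from 150 Mb to the end of 7q, had 8.11. The last 10 Mb of 7q had an O/E of 6.62 with the first 9 Mb of chromosome 20 from the corner, 7.61 with the next 9 Mb and 10.2 with the rest to the end of 20q, so there the gradient along chromosome 20 ran the other way. In the first 10 Mb of chromosome 7 from the corner these values fell from 51.6 to 23.8 and 19.7. With the last 10 Mb of 7q HCC1954 rose in the same direction, from 0.974 to 1.12 and 1.64, and OE33 went from 1.34 to 1.32 and 1.27. At 120 to 150 Mb of chromosome 7 SNU-C1 also rose, from 4.24 to 4.82 and 5.71, but the first 10 Mb of 7q had 4.27, 3.71 and 3.74. At 120 to 150 Mb HCC1954 rose from 0.916 to 1.03 and 1.19, and OE33 went from 1.09 to 1.17 and 0.995.

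Along chromosome 20, the first 10 Mb of chromosome 7 from the corner had a mean O/E of 1.06 to 1.58 in the 4-Mb steps up to 32 Mb, 25.8 in the step that holds the corner, 53.1 at 36 to 40 Mb and 36.4 at 40 to 44 Mb. The values then lay between 22.9 and 24.4 from 44 to 56 Mb and were 19.9 and 14.7 in the last 2 steps of 20q. Most of the fall along chromosome 20 thus came before 48 Mb.

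**Figure D4:**
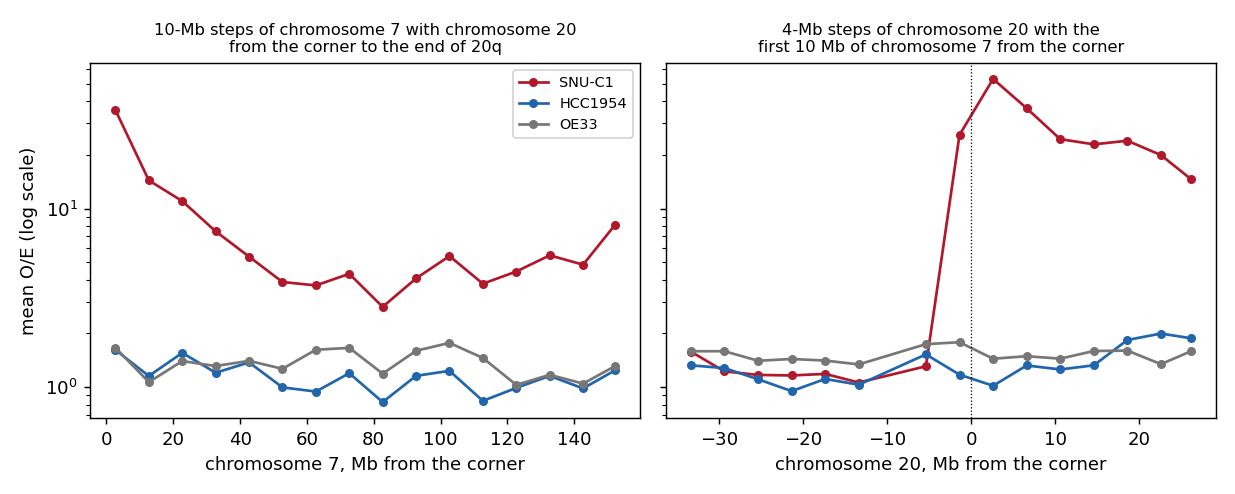
Mean O/E (log scale) of 10-Mb steps of chromosome 7 with chromosome 20 from the corner to the end of 20q (left), and of 4-Mb steps of chromosome 20 with the first 10 Mb of chromosome 7 from the corner (right), in Mb from the corner. SNU-C1 falls from 35.5 to 2.82 along chromosome 7 and rises to 8.11 at the end of 7q, and on chromosome 20 the step that contains the corner is the first above 2.

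Coverage, the read pairs of a bin over the median of the autosomes of the same map, stepped at the corner on chromosome 20. In SNU-C1 the median coverage was 1.14 over the 1 Mb below the corner and 2.33 over the 1 Mb above it. HCC1954 went from 0.702 to 0.751, OE33 from 2.55 to 2.53 and SW480 from 1.39 to 1.46, so the step in this measure was seen in SNU-C1 alone among the 4 lines. Relative to the median of the other 3 lines, SNU-C1 rose from 0.830 to 1.57, a step of 1.89 (log2 0.92). Over 1413 points of chromosome 20 the same log2 ratio had an SD of 0.296, and 1.49% of the points were as large in either direction. These points include the corner itself and points whose windows overlap it. The relative coverage of SW480 moved the other way at this point (log2 -0.90), where SNU-C1 is the middle one of the 3 lines it was divided by. Over the whole of 20q from the corner the median relative coverage was 1.49, against 0.804 for 20q below it and 0.947 for 20p.

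On chromosome 7 the step could be bounded but not measured. The 1 Mb above the corner had a relative coverage of 0.796 in SNU-C1, and the 25 bins below it were all unlisted. If each of them lay below the lowest coverage of any listed autosomal bin of SNU-C1, which was 0.168 of the median, the step was at least 3.91-fold. The same bound was 3.50-fold with a window of 0.5 Mb, 10.7-fold with read pairs within chromosomes only and 4.98-fold without SW480 among the reference lines. How sparse bins were treated upstream is not stated in the paper or labels, so a low copy number and a filter on bins cannot be told apart. The rest of 7p from the corner had a median relative coverage of 1.21 and 7q had 0.985, both lower than 20q from the corner. Coverage moved with the contacts on chromosome 20, and its part in them was not tested. Without the iterative correction, which divides by a factor for each bin, the mean O/E of the 2 chromosomes was 7.25 in place of 4.28.

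**Figure D5:**
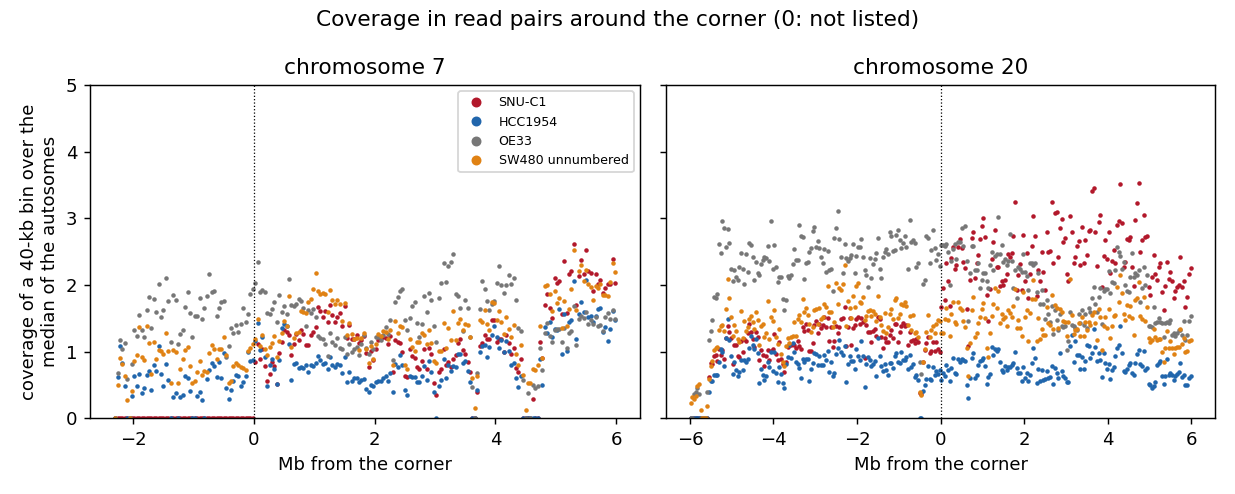
Coverage of 40-kb bins over the median of the autosomes, within 6 Mb of the corner on chromosomes 7 and 20, in SNU-C1, HCC1954, OE33 and the SW480 map without a replicate number, with unlisted bins at 0. Only SNU-C1 shows a step at the corner on chromosome 20, from a median of 1.14 to 2.33, and on chromosome 7 its bins below the corner are unlisted.

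Compartments were called in 200-kb blocks from the contacts within each chromosome, with A as the side that holds more genes. The blocks on both sides of the corner on chromosome 20 were in A in all 4 lines, as were the first 3 measured blocks of chromosome 7 from 2.4 Mb. The sign in SNU-C1 was the same as in OE33 in 85.5% of 723 blocks of chromosome 7 and 88.6% of 280 blocks of chromosome 20, and the same as in HCC1954 in 82.6% and 82.1%.

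The contacts between chromosomes 7 and 20 carried this pattern. In the enriched quadrant within 10 Mb of summed distance, contacts over the mean at the same summed distance were 1.02 for A with A, 1.51 for B with B, 0.803 for A of chromosome 7 with B of chromosome 20 and 0.870 for the reverse. Same over opposite compartment had a log2 ratio of 0.44 (counting interval 0.41 to 0.47), from 17883 and 11549 read pairs. The ratio was 0.56 within 20 Mb, 0.67 within 50 Mb and 0.74 over the whole quadrant. With the compartments of OE33, a line without the corner, the ratio within 10 Mb was 0.43, and with those of HCC1954 it was 0.18.

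Chromosome 20 outside the enriched quadrant gives the background of this ratio. Without division by distance, the log2 ratio of same over opposite compartment between chromosome 7 and chromosome 20 from the corner was 0.84 in SNU-C1, beside 0.66 for HCC1954 and 0.44 for OE33. For 20q below the corner it was 1.13, 1.09 and 0.65, and for 20p 0.52, 0.07 and 0.23. The enriched part of the SNU-C1 map thus lay between its own values for 20p and the rest of 20q, at an overall level several times higher.

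Boundaries of topologically associating domains near the corner were taken from the mean insulation of the other 3 lines. The nearest ones on the enriched side were 0.12 Mb from the corner on chromosome 7 and 0.76 Mb from it on chromosome 20. At 18 summed distances from 0.16 to 0.84 Mb, contacts between the stretches that end at these boundaries were compared with contacts beyond either of them in SNU-C1 (1897 and 2545 read pairs). They were higher within at 7 of the 18 distances, with a median log2 ratio of -0.07 and a range of -0.53 to 1.24, so a domain that spans the corner up to these boundaries was not seen at this resolution.

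At the edge on chromosome 7 lay SNX8 (chr7:2291405-2393953, minus strand), a sorting nexin gene of endosomal transport, whose span contained the first listed bin. The nearest protein-coding genes on the listed side were EIF3B, which encodes a subunit of translation initiation factor eIF3, CHST12, a carbohydrate sulfotransferase gene, and GRIFIN, a galectin-related gene. The 200-kb block from 2.4 Mb, which holds CHST12, GRIFIN and most of EIF3B, had an O/E of 1251 with the first 1 Mb of chromosome 20 from the corner, from 2091 read pairs, beside 1.14 in HCC1954 and 2.60 in OE33. On the unlisted side the nearest were NUDT1, which removes oxidized nucleotides, MRM2, a mitochondrial ribosomal RNA methyltransferase gene, and MAD1L1, a gene of the spindle assembly checkpoint, none of which has a contact value in SNU-C1. In all, 25 of the 901 protein-coding genes of chromosome 7 ended before the corner.

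At the edge on chromosome 20 lay DSN1 (chr20:35380194-35402221, minus strand), which encodes a kinetochore protein. SOGA1, TLDC2 and SAMHD1, a dNTP hydrolase gene, followed on the enriched side, within 1 block that had an O/E of 2181 with the first 1 Mb of chromosome 7 from the corner, from 3892 read pairs. The block below, with NDRG3, SLA2 and RAB5IF, had an O/E of 5.86 from 6 read pairs, beside 1.29 in HCC1954 and 3.36 in OE33. Relative coverage in SNU-C1 rose over these genes from 0.943 at RAB5IF and 0.947 at SLA2 to 1.31 at SOGA1 and 1.40 at SAMHD1. The enriched side of chromosome 20 held 256 of its 531 protein-coding genes.

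A list of 44 genes known in epithelial cancer or colon, 21 on chromosome 7 and 23 on chromosome 20, was placed on the map. All 21 of chromosome 7 and 14 of chromosome 20 lay on the enriched side. SRC, a tyrosine kinase gene 0.573 Mb from the corner, had an O/E of 270 with the first 1 Mb of chromosome 7 from the corner (431 read pairs) and a relative coverage of 1.62. TOP1, which encodes DNA topoisomerase I, had 72.9 at 4.26 Mb from the corner, and HNF4A, a transcription factor of intestinal and hepatic epithelium, 40.9 at 7.58 Mb. The lowest O/E among the 14 was that of AURKA, a mitotic kinase gene, with 19.4 (32 read pairs). The genes below the corner that could be measured, among them ASXL1, a chromatin regulator, with 4.01 and BCL2L1, an inhibitor of apoptosis, with 1.10, had 1 to 5 read pairs each. The order on the enriched side thus followed distance for the nearest genes and no longer did so from about 15 Mb, where SALL4, ZNF217, AURKA, BMP7, GNAS and CDH4 ranged from 19.4 to 36.2.

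On chromosome 7, PMS2, a mismatch repair gene, had an O/E of 65.1 with the first 1 Mb of chromosome 20 from the corner (130 read pairs), and RAC1, a small GTPase gene, had 58.6 (132 read pairs). HOXA9 and HOXA13, in a block of A compartment 24.9 Mb from the corner, had 22.02 (57 read pairs), above ETV1 with 11.5 and TWIST1 with 7.07, which lay nearer to the corner. EGFR, the receptor of epidermal growth factor, had 5.67 (16 read pairs), MET, the receptor of hepatocyte growth factor, 3.29 (8 read pairs) and BRAF 5.66 (13 read pairs). On 7q the list was highest at TRRAP, a gene of histone acetyltransferase complexes, with 12.4 (27 read pairs), and CUX1, a homeobox transcription factor gene, with 10.1 (23 read pairs). TRRAP also had 1.18 in HCC1954 and 3.81 in OE33, and CUX1 had 3.93 and 3.04. EGFR had 0.76 in HCC1954 and 1.75 in OE33, MET 0.719 and 1.61, and BRAF 1.63 and 1.23. These values were below those of SNU-C1, but HCC1954 had only 1 to 4 read pairs at each gene. The rule for block pairs specific to SNU-C1 was not applied to single genes.

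By the rule for specific block pairs, which uses corrected contacts, neither 1-Mb block at the corner had another partner in SNU-C1. Read pairs without correction were not compared for other partners. For chr7 2 to 3 Mb and chr20 35 to 36 Mb, the largest ratio of SNU-C1 to the higher of both other maps, on any chromosome but 7 and 20, was 3.21 and 3.22, below the threshold. Both were reached with the same block, chr11 23 to 24 Mb, where the O/E was 2.37 (53 read pairs) and 2.69 (138 read pairs). The neighbouring chr7 3 to 4 Mb passed it once, with chr8 142 to 143 Mb (O/E 5.58, 20 read pairs). Chromosome 7 had a further set of specific block pairs with chromosome 8 in SNU-C1, 413 of 19257 (2.14%), beside 0.17% over all chromosome pairs. The strongest was chr7 102 to 103 Mb with chr8 62 to 63 Mb, where the O/E was 186 from 1021 read pairs.

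Against OE33 alone, HCC1954 had a weaker contact between these chromosomes away from the corner, which was noticed after its values were seen. Its strongest block pair against OE33 was chr7 24 to 25 Mb with chr20 54 to 55 Mb, with an O/E of 8.49 from 69 read pairs, beside 1.13 in OE33. No more than this 1 block pair of 8526 passed the thresholds against OE33. Over chr7 3 to 24 Mb with chr20 54 to 60 Mb the mean O/E was 2.01 in HCC1954 and 1.23 in OE33, and over chr7 25 to 46 Mb with the same part of chromosome 20 it was 1.32 and 1.34. In SNU-C1 the block pair at 24 to 25 Mb had an O/E of 12.9, so it was not counted as specific to HCC1954. The mean over chr7 3 to 24 Mb with chr20 54 to 60 Mb was 14.6 in SNU-C1, and in HCC1954 it was below the threshold of 4 against OE33 as well.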

How the data were processed

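Hi-C maps of SNU-C1, HCC1954 and OE33 (1 each) and 3 of SW480 were analysed, of which 2 are numbered replicates and the third has a depth close to their sum. The paper's methods state duplicates, so a single map may pool 2 libraries. According to those methods, in situ libraries were cut with MboI, BWA-MEM placed the reads on hg19, Picard took out duplicates, and matrices were iteratively corrected by in-house pipelines. Tool versions and the filter on sparse bins are not stated there. The deposited unit is a signal, namely the corrected frequency of contact between 40-kb bins. Read pairs were recovered from them by fitting a factor for each bin (45 iterations), and 100% of the values tested were whole within 0.02. The SW480 maps also list pairs within a bin, and almost none between chromosomes. The calculations were tested on simulated data.

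The strongest 200-kb block pair with at least 10 read pairs was refined at 40 kb, over corner points within 1 Mb and 4 orientations. The rule laid down first, the largest log2 ratio of a 400-kb quadrant over the others, recovered 13 of 20 joins planted in simulated read pairs of chromosomes 7 and 20 in SNU-C1 (6270904 bin pairs) within 1 bin. The largest summed excess of the quadrant over the mean of the others recovered 20 and was used instead. The planted joins had an even background and a constant level against the within-chromosome mean, unlike this map. They therefore cannot decide which rule places this corner better. This change was made after the data had been seen. Coverage steps were taken over 1 Mb. Compartments are eigenvectors of the within-chromosome correlation matrix, signed by gene number, and genes are from GENCODE lifted to GRCh37. Named genes are those at the corner, the 3 nearest on each side and a list of 44. Values of 1 gene of the list and 1 sequence are not reported here. The members and lists were chosen with earlier results of these data known. No test was run, with 1 map per line. Block sizes, thresholds, the bin filter, the correction, quadrant sizes, distance ranges, windows and reference lines were varied. Matplotlib 3.10.9, pandas 2.3.3, SciPy 1.17.1 and NumPy 2.4.6 were used in Python 3.11.15.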

Additional observations from a re-analysis of the deposited data

How the results depend on the processing

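Of 48 alternatives, 25 left a value within a set range and 23 moved it by more, and no sign changed. Among the alternatives, 4 were chosen after seeing the data. The range was 1.5 times for a count and a 95% interval for most other values. For the level it was the interquartile range over distance bins, and for coverage steps the SD of log2 steps along the chromosome. Both refinement rules put the corner on chromosome 7 at 2.32 Mb, but neither could place it lower, where SNU-C1 lists no bins. The log2-ratio rule put it at 35.24 Mb of chromosome 20 in place of 35.40 Mb, with a slope of -1.29. The count of specific block pairs was 4621 of 34385 (13.4%) with blocks of 12 bins (used in place of the planned size, which holds no whole number of bins), 297 of 2072 (14.3%) with 2-Mb blocks, close to the share of 13.4% at 1 Mb, 314 at a threshold of 8 and 107 against the mean of this chromosome pair. It stayed within 1.5 times with 1 added to O/E (811), 0.25 added (1384) and no correction (1673). Mean O/E was 4.43 with no filter on bins and 7.25 without correction. The strongest block pair had 980 with blocks of 12 bins, 219 with 2-Mb blocks, 1363 without correction and 762 with no filter. The quadrant ratio was 7.25 over 1 Mb, 5.27 over 5 Mb and 7.30 without correction. The slope was -0.88 from 1 to 20 Mb (-1.06 within chromosomes) and -0.87 from 0.04 to 0.4 Mb (-0.91). The level was 0.682 without correction. The bound on chromosome 7 was 3.50 over 0.5 Mb, 4.71 over 3 Mb, 10.7 with read pairs within chromosomes only and 4.98 without SW480 as a reference. The compartment ratio was 0.18 with compartments from HCC1954 and 0.56 within 20 Mb. Against OE33 alone, HCC1954 had 1 specific block pair in place of 0. Leaving out SW480 replicate 1 or 2 gave 3.76 to 4.06 on chromosome 7 and 1.88 to 1.89 on chromosome 20. No paired analysis was possible because each line compared between chromosomes had 1 map. The causes were not tested. In SNU-C1, counts as low as 8 read pairs limit the values of single genes on 7q. The bin size of 40 kb limits the position of the corner on chromosome 20, and the start of the listed bins limits it on chromosome 7.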
